A study of Saccharomyces cerevisiae with 12 samples.

Results

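Subtelomeric nucleosomes were taken as all listed nucleosomes on the 16 nuclear chromosomes of Saccharomyces cerevisiae that lay within 20 kb of a chromosome end. The end was 0 on the left and the highest listed position of the chromosome in any list on the right. On chromosome III, positions below 16000 and above 291000 were excluded, which left 31 ends, of which 30 had the full 20 kb. The zone held 22846 of the 458552 nuclear entries in the 6 lists (4.98%), of 460382 entries in all. Per list this was 3845 in Ioc3-KO, 3821 in Ioc3-R739E/R742E, 3854 in Ioc3-Q251K/D252K, 3780 in WT1, 3769 in WT2 and 3777 in WT3. The remaining 434103 nuclear entries outside the zone and the excluded stretches are called the interior.

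Nucleosomes were mapped by MNase-seq, in which micrococcal nuclease (MNase) digests the DNA between nucleosomes and the protected fragments are sequenced. The strain in all groups was the haploid laboratory strain BY4741, grown in rich medium (YPD) at 30 °C to mid-log phase, and the labels give 600, 1200 and 2400 gel unit/ml of MNase without saying which sample had which. The groups were a knockout of IOC3 (Ioc3-KO), 2 strains with paired substitutions in Ioc3, named Ioc3-R739E/R742E and also Ioc3-Q251K/D252K, and 3 wild-type groups (WT1, WT2 and WT3), with 2 samples each. Ioc3 is a subunit of the remodeler ISW1a, in which the ATPase Isw1 slides and spaces nucleosomes. The authors deposited 1 position list per group with both samples pooled, so each Ioc3 genotype had 1 pool without replicate error and WT had 3. The labels do not say whether a genotype came from more than 1 clone.

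The ends of yeast chromosomes carry repeats next to the telomere. A core X element is found at every end, and many ends carry 1 or more long Y' elements outside it. The YRF1 genes inside Y' elements encode helicase-like proteins, and the copies are nearly identical in sequence. Further inward lie families with members at many ends, such as the PAU and COS genes, and genes for sugars, vitamins and metals that are used under particular growth conditions. Silent information regulator (SIR) proteins repress genes near many ends, with stronger binding at X than within Y'. Reads from near-identical copies cannot be placed with certainty. Values of single copies of repeated families, Y', YRF1, PAU and COS among them, are therefore uncertain, and the pooled values over copies are firmer.

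The lists held 10282804 to 10350515 reads in total, and a subtelomeric nucleosome had a median of 141 to 149 reads. The knockout was visible at IOC3, which had 825 reads in Ioc3-KO, 2355 in Ioc3-R739E/R742E, 2228 in Ioc3-Q251K/D252K, 2392 in WT1, 2426 in WT2 and 2570 in WT3. In Ioc3-KO no nucleosome was listed from 672 to 2360 bp after the IOC3 start codon, where the coding region is 2364 bp long, and 4 were listed at its beginning. Of 3618 subtelomeric dyads (nucleosome centres) in a joint map of all pools, 3353 (92.7%) were matched in all 6, against 93.0% of the interior dyads.

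Taken over all ends, the outermost 5 kb of the chromosomes had the highest read density of the zone. Relative to the mean of the nuclear chromosomes, the read density there was 1.12 in Ioc3-KO, 1.16 in Ioc3-R739E/R742E and 1.12 in Ioc3-Q251K/D252K, against 1.22, 1.24 and 1.25 in the WT pools. All pools were thus above their interior density of about 1.00, and the Ioc3 pools lay below the WT pools without overlap. From 5 to 10 kb the density was 1.00 to 1.01 in the Ioc3 pools and 1.02 to 1.03 in the WT pools. Over the whole zone the density exceeded the interior by 0.0731 on average (exact two-sided sign-flip permutation test over 6 pools, p = 0.031, the smallest it can give, and 0.0521 adjusted over 5 measures). Just inside the 20 kb limit, at 15 to 20 kb, an end had 424.1 to 435.5 RPM (reads scaled to the pool's nuclear total), and just outside it, at 20 to 25 kb, 404.8 to 413.9. The outermost rise was seen at ends with a Y' element, where the WT mean was 579.7 RPM per end. Further inward it was 421.2 to 433.9 at these ends. At ends without Y' the outermost 5 kb was the lowest bin, with a WT mean of 425.1 against 439.2 from 10 to 15 kb.

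Outermost nucleosomes were also fuzzier. Fuzziness is the standard deviation of the read positions assigned to a nucleosome, so a high value marks a position that varies between cells or that was digested unevenly. Within 5 kb of an end the median was 36.1 bp in Ioc3-KO, 35.6 bp in Ioc3-R739E/R742E and 36.3 bp in Ioc3-Q251K/D252K, against 35.5, 35.4 and 35.9 bp in the WT pools. The interior mean over the 6 pools was 32.2 bp, and every pool was at least 2.90 bp above its own interior (exact sign-flip permutation p = 0.031, adjusted over the bins and measures tested to 0.0417). From 10 to 15 kb the order was the other way, at 32.4, 31.2 and 31.9 bp in the Ioc3 pools and 31.0, 30.6 and 30.8 bp in the WT pools, and every pool was below its own interior (same test, same p). At ends with a Y' element the difference from the interior averaged 5.15 bp in the outermost 5 kb and -1.56 bp from 10 to 15 kb, each in the same direction in every pool (exact sign-flip permutation p = 0.031, adjusted 0.0556). At ends without Y' it averaged 0.317 bp and 0.0211 bp, with pools on both sides of 0 (exact p = 0.188 and 0.75). The difference between both kinds of ends was not tested for fuzziness.

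The 2 kinds of ends lay far apart in the first 1 kb. There the median fuzziness was 36.4 bp in the Ioc3 pools and 35.7 bp in the WT pools at ends with a Y' element, and 27.8 bp in both at ends without one. Ends were assigned to the Y' class from background knowledge of the reference strain, 17 with and 13 without among the 30 full ends, after results of these data were known. The gene table marks only the YRF1 genes, at 7 ends, so the assignment could not be checked against the files, and all values by Y' class rest on it. Over the outermost 5 kb the median was 37.1 to 37.8 bp in the Ioc3 pools and 36.9 to 37.5 bp in the WT pools at ends with Y', and 32.6 to 33.4 bp in the Ioc3 pools and 31.9 to 32.2 bp in the WT pools at the other ends. Shared reads between Y' copies and fuzzier nucleosomes cannot be told apart in these lists.

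**Figure D1:**
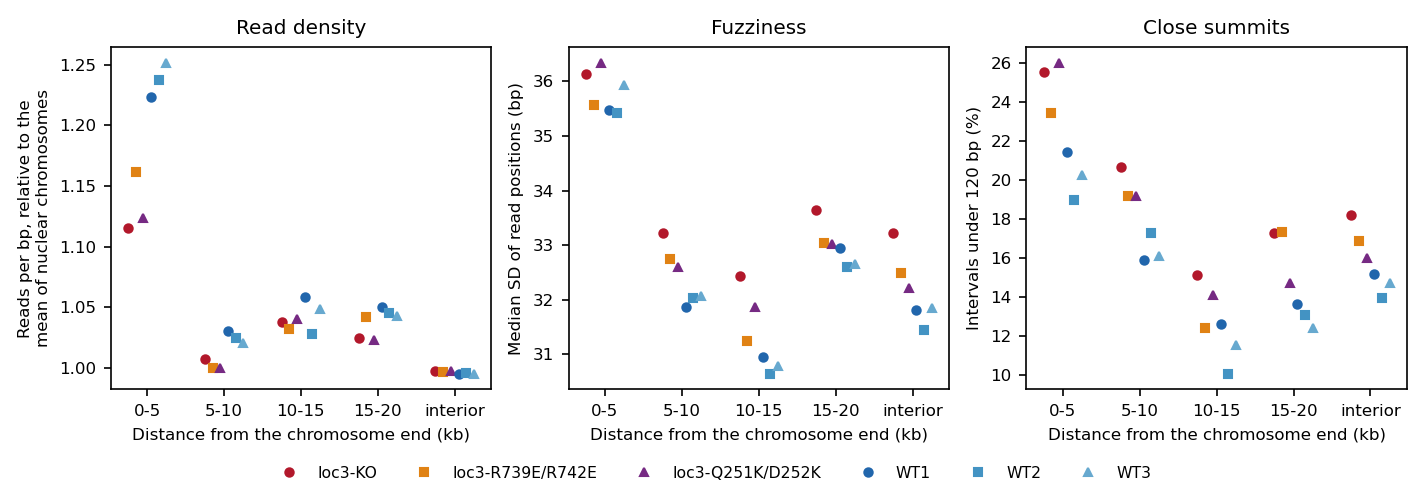
Subtelomeric nucleosomes by distance from the chromosome end, with 1 point per pool (Ioc3 pools left of the WT pools in each bin) and the chromosome interior at the right. The left panel gives read density relative to the mean of the nuclear chromosomes, the middle panel the median fuzziness in bp and the right panel the percentage of intervals between neighbouring summits under 120 bp. In the outermost 5 kb the Ioc3 pools lie at 1.12 to 1.16 in read density and the WT pools at 1.22 to 1.25.

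Over the whole zone, the Ioc3 pools held a smaller share of the nuclear reads than the WT pools. The share was 5.24% in Ioc3-KO, 5.30% in Ioc3-R739E/R742E and 5.24% in Ioc3-Q251K/D252K, against 5.46%, 5.42% and 5.46% in the WT pools. The groups did not overlap, and the difference of the means was -3.47% (exact two-sided permutation test, 3 against 3 pools, p = 0.1, which is the smallest it can give, adjusted over 5 measures to 0.125). The design can therefore not pass 0.05 in any such comparison of pools. More nucleosomes were listed per kb, with 6.37, 6.33 and 6.38 in the Ioc3 pools and 6.26, 6.24 and 6.25 in the WT pools, and the groups again did not overlap. The interior values, 6.41, 6.37 and 6.35 in the Ioc3 pools and 6.30, 6.28 and 6.30 in the WT pools, did not overlap either. The median distance between neighbouring summits was 161, 162 and 161 bp in the Ioc3 pools and 164, 163 and 163 bp in the WT pools (exact permutation p = 0.1 for each measure). Zone minus interior differed between the groups by 0.0244 nucleosomes per kb (exact permutation p = 0.6) and -1.0 bp of spacing (exact permutation p = 0.4). Neither difference is thus shown to be particular to the 20 kb zone as a whole. In the outermost 5 kb the groups also overlapped in both over all ends (exact permutation p = 0.4 each). At ends with Y' they did not overlap there, with differences of 0.145 nucleosomes per kb and -5.33 bp (exact permutation p = 0.1 each).

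Fuzziness of the zone was 33.8, 33.2 and 33.5 bp in the Ioc3 pools and 32.7, 32.6 and 32.8 bp in the WT pools, a difference of 0.798 bp (exact permutation p = 0.1, adjusted 0.125). The interior medians were 33.2, 32.5 and 32.2 bp in the Ioc3 pools and 31.8, 31.4 and 31.9 bp in the WT pools. The excess of the zone over the interior was 0.861 ± 0.384 bp in the Ioc3 pools and 1.00 ± 0.150 bp in the WT pools (SD, n = 3 each), and the groups overlapped (exact permutation p = 0.6). The higher fuzziness of the Ioc3 pools is thus not shown to be particular to the zone. For read density the excess over the interior was 0.0532 ± 0.00748 in the Ioc3 pools and 0.0931 ± 0.00421 in the WT pools, without overlap (SD, n = 3 each, exact permutation p = 0.1).

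Close summits, taken as neighbours less than 120 bp apart, were most frequent at the outermost ends. Within 5 kb they made up 25.5% of intervals in Ioc3-KO, 23.4% in Ioc3-R739E/R742E and 26.0% in Ioc3-Q251K/D252K, against 21.4%, 19.0% and 20.2% in the WT pools. In the interior they were 18.2%, 16.9% and 15.98% in the Ioc3 pools and 15.2%, 13.9% and 14.7% in the WT pools. The excess of the outermost 5 kb over the interior was 7.98 ± 1.82 percentage points in the Ioc3 pools and 5.62 ± 0.616 in the WT pools, without overlap (exact permutation p = 0.1, SD, n = 3 each). At ends with Y' this excess averaged 11.3 points in the Ioc3 pools and 7.36 in the WT pools (exact permutation p = 0.1), and at ends without Y' the groups differed by 0.166 points and overlapped (exact permutation p = 1.0).

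In the outermost 5 kb the read density was lower in the Ioc3 pools at ends with a Y' element. These had 499.0 RPM per end in Ioc3-KO, 529.4 in Ioc3-R739E/R742E and 495.7 in Ioc3-Q251K/D252K, against 569.7 in WT1, 578.7 in WT2 and 590.8 in WT3. Every Ioc3 pool was below every WT pool, by 13.9%, 8.68% and 14.5% of the WT mean, and Ioc3-R739E/R742E was the nearest to WT. The mean difference was -12.4% (exact permutation p = 0.1, adjusted over 16 comparisons to 0.267). The 13 ends without Y' had 413.7, 417.9 and 425.6 RPM per end in the Ioc3 pools and 425.0, 425.9 and 424.2 in the WT pools. Here the groups overlapped, and the difference was -1.41% (exact permutation p = 0.3). From 15 to 20 kb, however, the 14 ends without Y' had 421.7, 423.3 and 419.0 RPM per end in the Ioc3 pools and 427.7, 425.4 and 426.4 in the WT pools, without overlap (-1.21%, exact permutation p = 0.1, adjusted 0.267).

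The difference between the 2 kinds of ends was tested within each pool. The log2 ratio of reads at ends with Y' over the other ends was 0.27 in Ioc3-KO, 0.34 in Ioc3-R739E/R742E and 0.22 in Ioc3-Q251K/D252K, against 0.42, 0.44 and 0.48 in the WT pools. No Ioc3 pool reached the lowest WT pool, and the means differed by -0.17 (exact permutation p = 0.1, adjusted 0.267). Further inward the difference at Y' ends was -3.37% from 5 to 10 kb, -0.503% from 10 to 15 kb and -1.80% from 15 to 20 kb. From 5 to 10 kb the groups did not overlap, with 410.8, 408.0 and 402.4 RPM per end in the Ioc3 pools and 419.8, 424.8 and 419.1 in the WT pools. Leaving out any 1 pool kept the outermost difference between -14.2% and -11.3%, and it was -13.6% over the 7 ends with an annotated YRF1 gene and -11.3% over the other Y' ends. Fewer Y' copies in a strain and fewer nucleosomes per copy would both lower these reads, so these counts alone cannot tell them apart. Each Ioc3 genotype also has only 1 list.

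In bins of 1 kb, every Ioc3 pool was below every WT pool at Y' ends from 1 to 2 kb and in each bin from 3 to 6 kb, while the groups overlapped in the first bin, from 2 to 3 kb and from 6 to 7 kb. The groups were also apart in this direction from 10 to 11 kb and from 19 to 20 kb at Y' ends, and from 12 to 13 kb at ends without Y'. The lowest values were those from 1 to 2 kb, where the log2 ratio to the WT mean was -0.32 in Ioc3-KO, -0.27 in Ioc3-R739E/R742E and -0.32 in Ioc3-Q251K/D252K, against -0.05, 0.02 and 0.03 in the WT pools. From 5 to 6 kb it was -0.13, -0.10 and -0.20 in the Ioc3 pools and -0.03, 0.05 and -0.02 in the WT pools. At ends without Y', the Ioc3 pools were between -0.12 and 0.08 over all 20 bins.

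**Figure D2:**
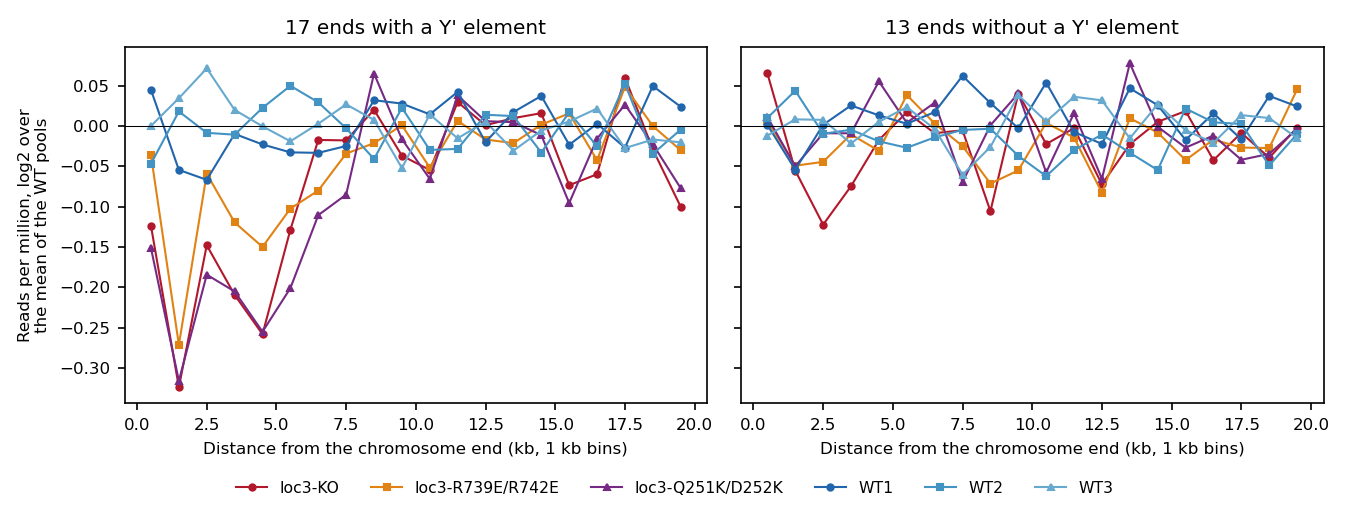
Reads in 1 kb bins from the chromosome end, as log2 of RPM over the mean of the WT pools, for 17 ends with a Y' element (left) and 13 ends without (right). Each line is 1 pool, and at Y' ends the Ioc3 lines lie at -0.32, -0.27 and -0.32 from 1 to 2 kb and overlap with the WT lines from 6 to 7 kb.

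Counted end by end, 15 of the 17 Y' ends had fewer reads in the outermost 5 kb in every Ioc3 pool than in every WT pool, as did 2 of the 13 other ends (VII-L and I-R). Over all 2429 windows of 5 kb in the genome, 9.22% showed this pattern and 8.77% the opposite one. The 2 Y' ends that overlapped were IX-L and VI-L. In the next windows inward the pattern held at 7 of 30 ends from 5 to 10 kb, 2 of 30 from 10 to 15 kb and 9 of 31 from 15 to 20 kb. By edgeR's quasi-likelihood test at an unadjusted p under 0.05, the outermost window was lower at 16 of 17 Y' ends in Ioc3-KO, 8 in Ioc3-R739E/R742E and 14 in Ioc3-Q251K/D252K, and at 16 for the 3 pools together. Of all windows 7.49%, 2.8%, 4.78% and 5.64% were. The Y' ends share reads, so they are not 17 independent observations.

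The ends with the most reads in the outermost 5 kb were IV-R, XII-R and XV-R, whose windows hold YRF1-1, YRF1-5 and YRF1-8. IV-R had 7084 reads in Ioc3-KO, 7277 in Ioc3-R739E/R742E and 7084 in Ioc3-Q251K/D252K, against 7959, 7637 and 8106 in the WT pools. The 3 lowest ends were VII-L, XI-L and I-L, all without Y', with COS12, PAU16 and PAU8 among their outermost genes. VII-L had 3741, 3817 and 3822 reads in the Ioc3 pools and 4258, 3972 and 4051 in the WT pools, and the groups did not overlap at either end.

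The end of the left arm of chromosome XII, which carries 2 Y' elements, showed the largest log2 difference of the outermost windows. Its outermost 5 kb had 4613 reads in Ioc3-KO, 5089 in Ioc3-R739E/R742E and 4439 in Ioc3-Q251K/D252K, against 6047, 5790 and 5767 in the WT pools. All 3 WT pools were above all 3 Ioc3 pools. In Ioc3-KO this was the only subtelomeric window of 121 that passed edgeR's quasi-likelihood test (log2 fold change -0.36, adjusted p = 0.030), where 0.0823% of all windows passed. DESeq2 called 7 (0.412% of all windows), and 36 had an unadjusted p under 0.05 with edgeR (14.5%). The count moved with the WT pools, to 18 without WT1, 14 without WT2 and 0 without WT3. Over all windows it was then 114, 60 and 1. In Ioc3-Q251K/D252K 6 subtelomeric windows passed with edgeR, where the genome had 1.15%, and 8 with DESeq2 (1.28%). The 6 became 17 without WT1, 12 without WT2 and 1 without WT3, with 100, 57 and 21 over all windows.

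Of these 6 windows, 5 were outermost Y' windows that fell: XII-L (-0.40, edgeR adjusted p = 0.001), XIV-L (-0.36), XVI-R (-0.34), VII-R (-0.34) and V-R (-0.28) on the log2 scale. The sixth, XI-L, an end without Y', rose, with 4425 reads in Ioc3-Q251K/D252K against 3943, 3763 and 3740 in the WT pools (log2 fold change 0.22, edgeR adjusted p = 0.048). Its reads were 3914 in Ioc3-KO and 4160 in Ioc3-R739E/R742E. In Ioc3-R739E/R742E no subtelomeric window passed with edgeR (0.0% of all windows) or with DESeq2, and 18 had an unadjusted p under 0.05 (6.38% of all windows). Without WT1 edgeR called 3 and without WT2 it called 2. For the 3 Ioc3 pools together edgeR called none (0.0% of all windows), with 37 subtelomeric windows at an unadjusted p under 0.05 (12.0%), and DESeq2 called 16 (1.81%), of which 15 were lower. Leaving out Ioc3-R739E/R742E or Ioc3-Q251K/D252K gave 1 call with edgeR.

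For reads per 5 kb window, no difference between genotypes passed in the zone. Comparing the Ioc3 genotypes pairwise, 1 pool against 1 pool with the spread of the WT pools, edgeR called 0 subtelomeric windows in each of the 3 pairs, with 7 to 10 at an unadjusted p under 0.05. Of all 2429 windows it called 1 between Ioc3-KO and Ioc3-R739E/R742E, 22 between Ioc3-KO and Ioc3-Q251K/D252K and 23 between Ioc3-R739E/R742E and Ioc3-Q251K/D252K. The share of all windows at an unadjusted p under 0.05 was not taken for these pairs. Another tool was not run on them, and other measures were not compared between genotypes. The windows that passed in Ioc3-Q251K/D252K and not in Ioc3-R739E/R742E are therefore not shown to differ between the mutants.

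**Figure D3:**
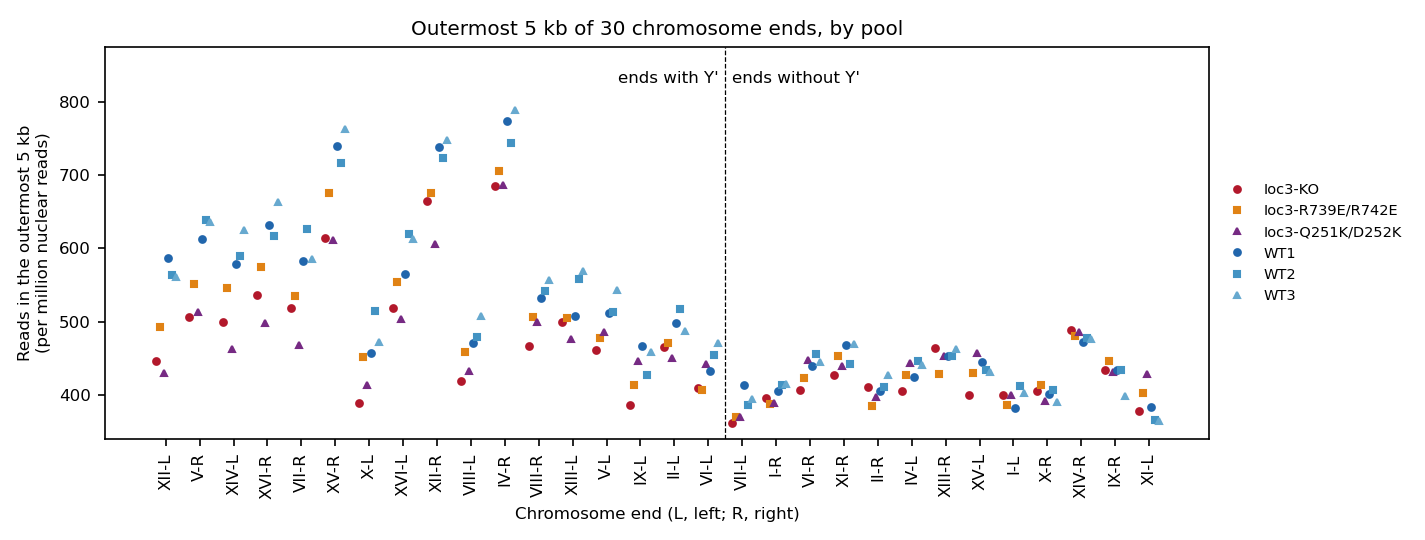
Reads in the outermost 5 kb of 30 chromosome ends, in RPM (vertical axis, which does not start at 0), with 1 point per pool and the Ioc3 pools left of the WT pools at each end. Ends are sorted within the Y' class (left) and the class without Y' (right) by their log2 change, and XII-L, at the left, has the largest one (log2 fold change -0.32 for the 3 Ioc3 pools).

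The 8 YRF1 genes, the helicase genes of the Y' elements, all had fewer reads in every Ioc3 pool than in every WT pool. Among all genes tested, 13.9% showed this, and among the 224 subtelomeric coding regions 72 did, with 13 the other way where all genes had 5.81%. The YRF1 copies are nearly identical and lie at the Y' ends already counted above, so they are not 8 independent observations. YRF1-2 at V-R had 5294 reads in Ioc3-KO, 5857 in Ioc3-R739E/R742E and 5331 in Ioc3-Q251K/D252K, against 6414, 6624 and 6667 in the WT pools. The 3 Ioc3 pools lay well apart from WT (log2 fold change -0.24 ± 0.04 SE, edgeR adjusted p = 0.155), without passing. YRF1-6 at XIV-L (chromosome XIV, 371 to 6098, minus strand) had 5670, 6217 and 5297 reads in the Ioc3 pools against 6750, 6857 and 7032 in the WT pools. It fell in Ioc3-Q251K/D252K by 0.34 on the log2 scale (edgeR adjusted p = 0.046), where 1.02% of all coding regions passed.

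The smallest change among them was that of YRF1-4, which lies in the inner of the Y' elements at XII-R, 8.91 kb from the end. It had 5109, 4886 and 4993 reads in the Ioc3 pools and 5521, 5568 and 5292 in the WT pools (log2 fold change -0.11 ± 0.04 SE, edgeR adjusted p = 0.368). The median of the 8 genes was -0.19 for the 3 Ioc3 pools together, with -0.06 over all subtelomeric coding regions and 0.00 over all genes. By genotype the YRF1 median was -0.23 in Ioc3-KO, -0.13 in Ioc3-R739E/R742E and -0.25 in Ioc3-Q251K/D252K. DESeq2 called 7 of the 8 genes for the 3 Ioc3 pools together, all but YRF1-4 (DESeq2 adjusted p = 0.255), while edgeR called none of them. YRF1-1 had the highest read density of the family, with 1442 reads per kb, and YRF1-3 the lowest, with 1078.

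The coding regions YPR203W and YPR204W lie at XVI-R, which has a Y' element without a YRF1 name in the gene table. YPR203W (chromosome XVI, 943880 to 944188) had 146 reads in Ioc3-Q251K/D252K, against 317, 351 and 387 in the WT pools. In Ioc3-KO it had 343 reads and in Ioc3-R739E/R742E 329, within the WT range. It fell in Ioc3-Q251K/D252K by 1.23 on the log2 scale (edgeR adjusted p = 0.034), where 1 nucleosome was listed in it, against 2 in each of the other 5 pools. YPR204W (944603 to 947701) had 3528, 3787 and 3214 reads in the Ioc3 pools and 4244, 4260 and 4326 in the WT pools, and fell by 0.38 in Ioc3-Q251K/D252K (edgeR adjusted p = 0.034). Leaving out WT1 or WT2 left none of the 3 calls, YRF1-6 included, and leaving out WT3 left 1 call in the zone.

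These 3 were the only subtelomeric coding regions that passed with edgeR in the 4 comparisons with WT. DESeq2 called 8 in Ioc3-Q251K/D252K (1.27% of all genes), and 44 had an unadjusted p under 0.05 with edgeR (9.49%). In Ioc3-KO edgeR called none of 224 (0.0837% of all genes), with 54 at an unadjusted p under 0.05 (12.3%) and 9 calls by DESeq2 (0.435%). In Ioc3-R739E/R742E it called none (0.0% of all genes), with 28 unadjusted (5.84%) and no call by DESeq2 (0.0502%). For the 3 Ioc3 pools together it called none (0.1% of all genes), with 60 unadjusted (11.1%) and 11 by DESeq2 (0.469%). Without Ioc3-R739E/R742E, and without WT1, edgeR called 1. Counting lower reads alone at an unadjusted p under 0.05, edgeR gave 42 in Ioc3-KO, 21 in Ioc3-R739E/R742E, 34 in Ioc3-Q251K/D252K and 51 in the 3 together, with 6.16%, 2.58%, 4.3% and 5.61% of all genes. In the outermost 5 kb of Y' ends, 21 of 30 coding regions were lower in every Ioc3 pool, against 8 of 22 at the other ends and 43 of 172 from 5 to 20 kb.

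Inward of the repeats, the PAU genes were the largest family. They encode seripauperins, small cell wall mannoproteins made mainly under anaerobic growth. Of 18 subtelomeric members 8 were lower in every Ioc3 pool, where 13.9% of all genes and 72 of the 224 subtelomeric coding regions were. None was higher, where 5.81% of all genes were, and the log2 change was below 0 in 17 (median -0.19). PAU6 at XIV-R had 126, 166 and 142 reads in the Ioc3 pools and 172, 209 and 188 in the WT pools, the lowest read density of the family with 460.5 reads per kb. PAU9 had the highest, with 954.8 reads per kb, and overlapped between the groups. Reads were summed over nucleosomes with a summit inside the coding region, so densities of short genes depend on how many summits fall inside. No PAU gene passed with edgeR in any comparison.

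The COS genes, which encode membrane proteins of a repeated family, had 1 of 11 subtelomeric members lower in every Ioc3 pool (COS7), beside 13.9% of all genes. None was higher, and the median log2 change was 0.00, with 4 below 0. COS12 had the highest read density, with 1001 reads per kb, and COS5 the lowest, with 673.2. COS5 had 772, 782 and 783 reads in the Ioc3 pools and 775, 767 and 774 in the WT pools, which overlap and lie close together. The difference between the COS and PAU genes was not tested.

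In these smaller lists the counts of lower genes stand beside the same 13.9% of all genes, and those of higher genes beside 5.81%. Of all 224 subtelomeric coding regions 72 were lower and 13 higher, so lower members are not shown to be particular to a list. Whether members of a list share reads was not tested. Among genes of sugar use, the 3 hexose transporter genes HXT15, HXT16 and HXT17 were all lower in every Ioc3 pool, by small amounts (median -0.05). HXT15, with the highest density, had 1808, 1902 and 1774 reads in the Ioc3 pools and 1978, 2085 and 1996 in the WT pools. Of 10 genes for maltose and isomaltose use, 1 was lower (MAL31), not above the 13.9% of all genes, with IMA4 the densest at 1113 reads per kb and MAL33 the sparsest at 786.7. The aryl alcohol dehydrogenase genes AAD4, AAD10 and AAD14 were lower and AAD15 overlapped. Of 6 other dehydrogenase and reductase genes 4 were lower, among them ADH4, an alcohol dehydrogenase gene at VII-L, with 808, 934 and 905 reads in the Ioc3 pools and 1069, 1098 and 1138 in the WT pools (log2 fold change -0.30 ± 0.06 SE, edgeR adjusted p = 0.224).

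Vitamin B genes had 3 of 8 members lower. THI5, for the synthesis of the thiamine precursor, had 891, 878 and 919 reads in the Ioc3 pools and 1069, 1079 and 1050 in the WT pools, a wide gap between tight groups (log2 fold change -0.23 ± 0.04 SE, edgeR adjusted p = 0.155). Of 7 genes for metals, 2 were lower (GEX2 and FRE2) and ARR1, the regulator of arsenic resistance, was higher, with 939, 1054 and 994 reads in the Ioc3 pools against 853, 881 and 928 in the WT pools. Of the 3 enolase-related genes ERR2 and ERR3 were lower, of 3 genes for phosphate the acid phosphatase gene PHO11, and of 5 genes for other uptake VBA5. FLO10, a flocculin gene and the only adhesin of the list in the zone, was lower, and IMD2, the only gene of nucleotide synthesis, overlapped. No member of these lists passed with edgeR, and the lists of DUP240 genes and of sporulation genes had no member in the zone.

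**Figure D4:**
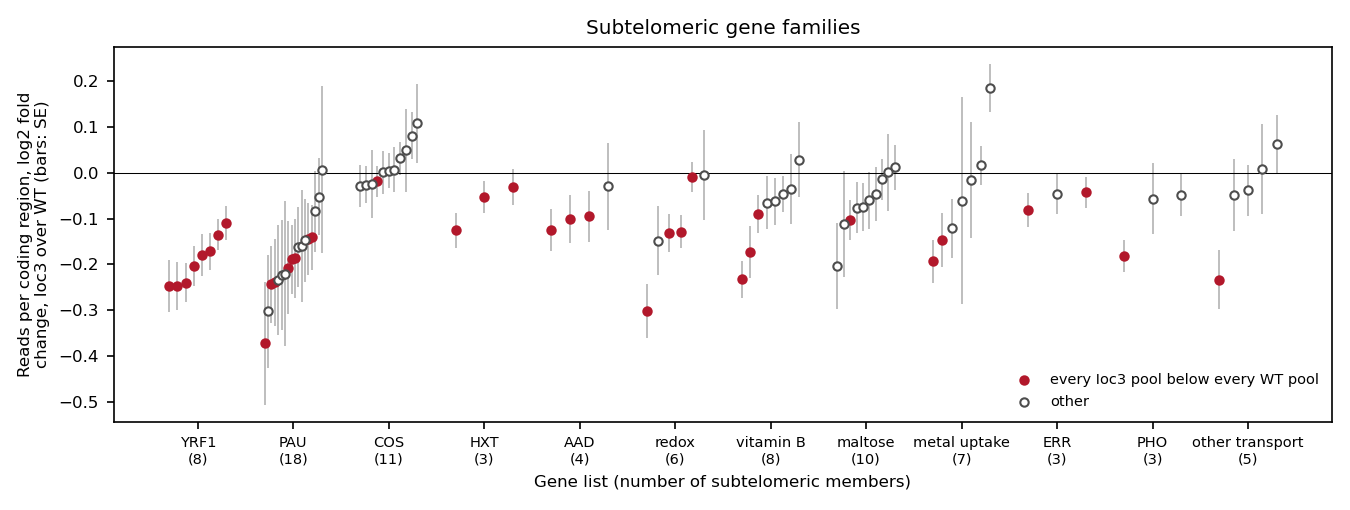
Log2 fold change of reads per coding region, 3 Ioc3 pools over 3 WT pools with its SE from edgeR, for members of the gene lists within 20 kb of a chromosome end. Filled points had fewer reads in every Ioc3 pool than in every WT pool, which held for all 8 YRF1 genes, 8 of 18 PAU genes and 1 of 11 COS genes.

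Single nucleosomes rarely moved in a way the Ioc3 pools shared. Position was tested with limma on dyads matched in all pools, with positive values away from the nearest end. For the 3 Ioc3 pools together 7 of 3353 subtelomeric dyads were called, where 0.185% of all dyads were, and leaving out Ioc3-R739E/R742E or Ioc3-Q251K/D252K gave 12. In Ioc3-KO 49 were called, 24 of them away from the end, where the genome had 1.28%, and that number was 0 with a matching limit of 50 bp, with mean read positions, and without WT1, WT2 or WT3. In both comparisons the zone was near the share of all dyads, so position calls are not shown to be particular to the zone. In Ioc3-R739E/R742E and Ioc3-Q251K/D252K limma called 0 (0.0% of all dyads each), with 290 and 398 of the 3353 subtelomeric dyads at an unadjusted p under 0.05. Over all 67659 dyads 5820 and 5981 had such a p, and another tool was not run.

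Some of the largest of the 49 changes in Ioc3-KO lay at genes inward of the repeats. In DLD3, a lactate dehydrogenase gene at V-L, the summit was at 16411 in Ioc3-KO, against 16479, 16483 and 16485 in the WT pools (-71.3 bp, limma adjusted p = 0.035). In VBA5, a gene of amino acid transport at XI-R, it was at 659789 in Ioc3-KO, against 659721, 659718 and 659716 in the WT pools (-70.7 bp, limma adjusted p = 0.034). Before IRC7 at VI-R it was at 263398 in Ioc3-KO, against 263462, 263464 and 263468 in the WT pools (66.7 bp, limma adjusted p = 0.035). Each rests on 1 pool and was not called without any 1 of the WT pools.

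The largest shared change was before YRF1-1 at IV-R, 348 bp upstream of the start codon (chromosome IV, 1525973 in sacCer3). The summit was at 1525907 in Ioc3-KO, 1525912 in Ioc3-R739E/R742E and 1525907 in Ioc3-Q251K/D252K, against 1525974, 1525973 and 1525974 in the WT pools. The Ioc3 summits thus lay 65.0 bp further from the end, with at most 5 bp of spread within either group (limma adjusted p = 0.002). The reads of this nucleosome were 254, 279 and 245 in the Ioc3 pools and 284, 304 and 286 in the WT pools. The fuzziness was 32.9, 34.3 and 32.7 bp in the Ioc3 pools and 35.5, 38.6 and 38.6 bp in the WT pools. By mean read position the change was 35.6 bp (limma adjusted p = 0.044).

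A dyad before YIR042C at IX-R (chromosome IX, 436352) was called with a change toward the end. Its matched summit was at 436419, 436412 and 436412 in the Ioc3 pools and at 436354, 436351 and 436350 in the WT pools, a change of -62.7 bp (limma adjusted p = 0.003). WT1 and WT2 listed a further summit at 436493 and 436485, closer to the end, and in these pools the Ioc3 summits fall between listed summits. WT3 listed none there. In YOL162W at XV-L (chromosome XV, 10314) the summits were at 10311, 10317 and 10312 in the Ioc3 pools and at 10379, 10380 and 10372 in the WT pools, which is -63.7 bp (limma adjusted p = 0.005). In YHR218W at VIII-R (chromosome VIII, 558283) they were at 558327, 558319 and 558328 in the Ioc3 pools and at 558279, 558278 and 558276 in the WT pools, which is -47.0 bp (limma adjusted p = 0.011). IX-R and XV-L carry no Y' element, and VIII-R does.

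The others were -42.0 bp in YBL111C at II-L, 35.0 bp at IX-R 968 bp from the end, and 28.0 bp in YRF1-1. Each pool's summit was matched within 70 bp of the joint dyad, which limits the shifts that can be seen, and 3 of the 7 sites (IV-R before YRF1-1, IX-R before YIR042C and XV-L) had shifts close to that limit. These 3 were not matched with the limit of 50 bp. By mean read position, the dyads before YRF1-1, in YOL162W and in YHR218W were still called, and the other 4 of the 7 kept their direction without passing.

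**Figure D5:**
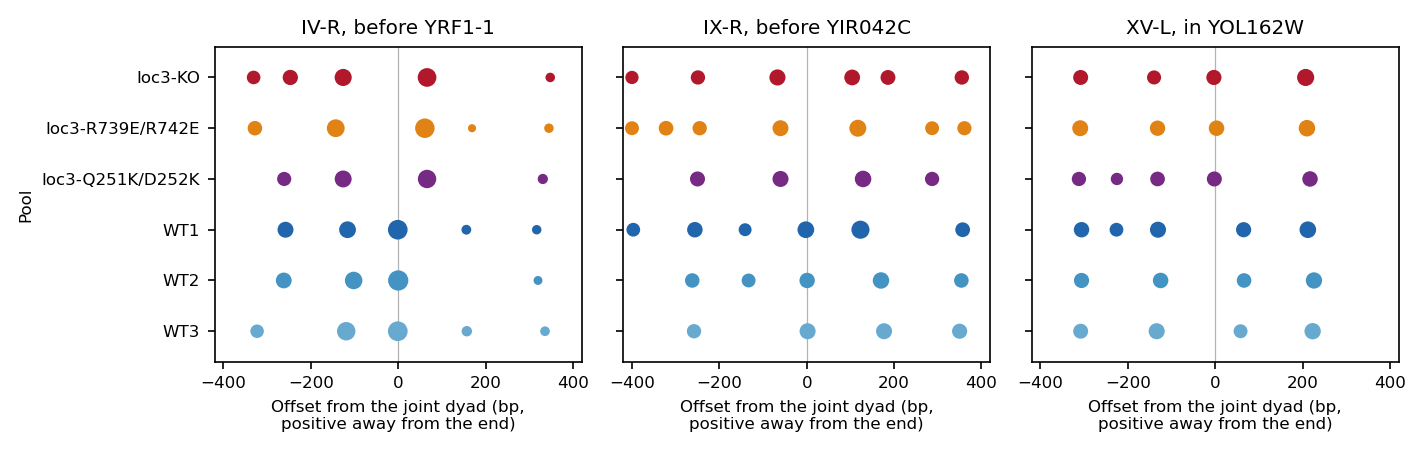
Listed summits around 3 subtelomeric dyads whose position differed between all Ioc3 pools and WT, by offset in bp from the joint dyad (positive away from the chromosome end), with 1 row per pool, Ioc3 pools above WT, and point area in proportion to reads. At IV-R before YRF1-1 the Ioc3 summits lie at 66, 61 and 66 bp and the WT summits at -1, 0 and -1 bp.

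The median position hardly differed. The median change was between 0.00 and 0.33 bp in every pool over the 3353 dyads. The median absolute deviation from the WT mean was 4.67 bp in Ioc3-KO, 3.33 bp in Ioc3-R739E/R742E and 3.67 bp in Ioc3-Q251K/D252K. For each WT pool against the mean of the other 2 it was 2.5 to 3.0 bp, below all 3 Ioc3 pools, although the reference means then rest on different numbers of pools. In the interior it was 4.67, 3.33 and 3.0 bp in the Ioc3 pools and 2.5 to 3.0 bp in the WT pools.

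Fuzziness of matched subtelomeric nucleosomes was not called by limma in any of the 4 comparisons with WT. Without 1 of the WT pools it was called at 2 to 25 dyads in Ioc3-KO, 1 to 3 in Ioc3-R739E/R742E and 4 to 11 in Ioc3-Q251K/D252K. Over all dyads these numbers were 29 to 544, 2 to 114 and 28 to 143. Of the 3353 subtelomeric dyads, 497 had an unadjusted p under 0.05 in Ioc3-KO, 226 in Ioc3-R739E/R742E, 301 in Ioc3-Q251K/D252K and 363 in the 3 together. Over all 67658 dyads 10455, 4853, 4431 and 7978 had such a p, and another tool was not run. Of all dyads 0.00148%, 0.0%, 0.0103% and 0.0% were called in these comparisons. The median change in Ioc3-KO was 0.74 bp in the zone and 0.32 bp in the outermost 5 kb, with 1.23 bp in the interior. Measured from each dyad's mean over the pools, the median in the outermost 5 kb minus that in the interior was -0.67, -0.38 and 0.39 bp in the Ioc3 pools and 0.01, 0.23 and 0.43 bp in the WT pools, which overlap (exact permutation p = 0.3).

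Peak height, a signal at the summit, was called at 12 subtelomeric dyads in Ioc3-KO (0.223% of all dyads), 1 in Ioc3-R739E/R742E (0.0163%), 24 in Ioc3-Q251K/D252K (0.822%) and 17 in the 3 pools together (0.471%). The counts in Ioc3-Q251K/D252K and in the 3 pools together were near these shares, but their directions were not those of all dyads. In Ioc3-Q251K/D252K 5 of the 24 were higher and 19 lower, where over all dyads 506 were higher and 50 lower. This difference in direction was not tested. The count for the 3 pools together was 0 without Ioc3-KO, WT2 or WT3, 48 without Ioc3-R739E/R742E and 36 without WT1. Over all dyads it was 15, 48 and 60, then 645 and 737, in the same order. Without WT1, WT2 and WT3 in turn the counts were 88, 45 and 52 in Ioc3-KO, 4, 4 and 5 in Ioc3-R739E/R742E, and 63, 52 and 48 in Ioc3-Q251K/D252K. Over all dyads they rose as well, to 1315, 695 and 789, to 90, 114 and 145, and to 1381, 1045 and 996. Of the 17, 11 were higher and 6 lower, relative to the pool median, where over all dyads 299 were higher and 20 lower. With heights as deposited limma called 3, all of them lower, and the median log2 height change of the zone was -0.07, against 0.01 relative to the pool median. The lower ones included 4 in YRF1 genes and 1 in YPR204W. In YRF1-6 (chromosome XIV, 4307) the nucleosome had 75, 102 and 92 reads in the Ioc3 pools and 158, 164 and 163 in the WT pools, a log2 height change of -0.81 (limma adjusted p = 0.023). In YRF1-3 (chromosome VII, 1086653) it had 93, 80 and 89 reads in the Ioc3 pools and 161, 148 and 165 in the WT pools, a change of -0.79 (limma adjusted p = 0.018).

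The higher ones included 2 nucleosomes before IMD2 at VIII-R and 1 before DDI3 at VI-L. The IMD2 nucleosome 210 bp before the start codon had 86, 75 and 90 reads in the Ioc3 pools and 61, 50 and 54 in the WT pools, a log2 height change of 0.77 (limma adjusted p = 0.038). The DDI3 nucleosome had 102, 91 and 106 reads in the Ioc3 pools and 58, 65 and 72 in the WT pools (0.75, limma adjusted p = 0.041). Both sets of pools were clear of each other at these sites. The largest change, 1.35 before YJL225C at X-L, rests on 14, 11 and 9 reads in the Ioc3 pools and 4, 5 and 4 in the WT pools.

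Intervals over 300 bp between neighbouring summits numbered 16, 20 and 18 in the zone in the Ioc3 pools and 15, 16 and 20 in the WT pools. These were 0.420%, 0.528% and 0.471% of zone intervals in the Ioc3 pools and 0.400%, 0.428% and 0.534% in the WT pools. Interior shares were lower in every pool, at 0.302%, 0.269% and 0.226% in the Ioc3 pools and 0.289%, 0.333% and 0.363% in the WT pools, which was not tested. Of intervals of at least 300 bp, 3 were found in all pools, each at a Y' end. They lay in YLL067C at XII-L, 613 bp from the end, in YIL177C at IX-L, 3583 bp from it, and 927 bp before YML133C at XIII-L, 5611 bp from it. The interval at XII-L was 327, 350 and 337 bp in the Ioc3 pools and 342, 345 and 341 bp in the WT pools, and the groups overlapped. At IX-L it was 351, 345 and 305 bp in the Ioc3 pools and 343, 348 and 345 bp in the WT pools, with Ioc3-Q251K/D252K the shortest.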

How the data were processed

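The 12 MNase-seq samples formed 6 groups with 2 samples each, and the authors deposited 1 nucleosome list per group. Per the submitters' processing notes, reads were handled with Trimmomatic, Bowtie2 and SAMtools on sacCer3, without versions, and the nucleosome caller is not given in the sources used here. Per the file headers, the deposited lists give a summit, a mean position and a standard deviation in bp, a read count, and a peak height (a signal of unknown scale). The coordinate base and any scaling of depth are not given either. Where a genotype has 1 pool, its p-values measure only the spread between WT pools. Reads carry no molecular identifiers, so they are not independent molecules.

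Read counts were summed over 5 kb windows from each end and over the entries inside 6002 coding regions (RefSeq gene table, R64, of which 5972 passed the low-count filter, all 224 in the zone among them). They were tested with edgeR 4.0.16 (quasi-likelihood, TMM, genotype as factor, Benjamini-Hochberg over all features). Joint dyads came from summits smoothed with a Gaussian of SD 20 bp, at least 100 bp apart and matched within 70 bp, and were tested with limma 3.58.1. Peak height was log2 over the pool median. Calls were made at adjusted p under 0.05. Pool values had exact two-sided permutation tests. The fits were tested on simulated data. Alternatives used DESeq2 1.42.0, library totals without TMM, no low-count filter, a matching limit of 50 bp, mean read position, entries above the 10th percentile of height, zones of 10 kb and 5 kb, ends left out and pools left out. R 4.3.3 and Python 3.11.15 were used.

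Members, gene lists and Y' ends were chosen with earlier results of these data known. Named were up to 8 called coding regions and 6 called dyads per direction and comparison, the densest and sparsest members of each list and IOC3. Other genes and windows were named after their values were seen.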

Additional observations from a re-analysis of the deposited data

How the results depend on the processing

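No paired analysis was possible because the deposited lists pool both replicates of each group. A single genotype leaves 2 residual degrees of freedom from the WT pools (1 without a WT pool), which limits every call. The zone of 5 kb and the runs without Y' ends were chosen after seeing the data. On average over the pools, the zone of 20 kb held fewer listed nucleosomes per kb than the interior (-0.029, exact sign-flip permutation p = 0.0625). Ioc3-Q251K/D252K went the other way. The zone held more at 10 kb (0.061), at 5 kb (0.139) and in the stricter list without the weakest entries (0.064), and the difference was -0.105 without Y' ends. Zone spacing minus interior turned to -1.5 bp at 10 kb and -2.67 bp at 5 kb, and was 2.0 bp without Y' ends. Read density over the interior was 0.189 at 5 kb and 0.040 without Y' ends, fuzziness 3.63 bp at 5 kb, and height 0.070 without Y' ends. Between Ioc3 and WT, height turned to 0.024 without Y' ends, and spacing to 0.0 bp in the stricter list. With DESeq2 the calls were 7 windows in Ioc3-KO and 16 for all 3 pools, and 9, 8 and 11 coding regions in Ioc3-KO, Ioc3-Q251K/D252K and all 3. With the 50 bp limit, position calls were 0 in Ioc3-KO and 3 for all 3, fuzziness calls 1 in Ioc3-Q251K/D252K and height calls 26 for all 3. With mean positions they were 0 in Ioc3-KO and 4 for all 3. The stricter list gave 58 fuzziness calls in Ioc3-KO and 1 for all 3, and 121, 2, 90 and 71 height calls in Ioc3-KO, Ioc3-R739E/R742E, Ioc3-Q251K/D252K and all 3. Over all dyads of that list, 1220 and 17 were called for fuzziness and 1553, 7, 1263 and 950 for height. Heights as deposited gave 0 calls in Ioc3-R739E/R742E and 3 for all 3, all lower. The height change at the dyad at 943016 on chromosome XVI in Ioc3-Q251K/D252K turned to 0.025 in the stricter list. Leaving out 1 pool gave 0 to 18, 0 to 3, 1 to 17 and 0 to 1 windows (order Ioc3-KO, Ioc3-R739E/R742E, Ioc3-Q251K/D252K, all 3), 0 to 1 coding regions in Ioc3-Q251K/D252K and all 3, position calls of 0 in Ioc3-KO and 7 to 12 for all 3, fuzziness calls of 2 to 25, 1 to 3, 4 to 11 and 0, and height calls of 45 to 88, 4 to 5, 48 to 63 and 0 to 48. The cause was not tested. Of the other alternative values for single genes, windows and dyads, 330 kept direction and side of the threshold, 173 kept direction without passing and 7 newly passed.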

Other observations

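A short coding region at I-R split the wild-type pools. YAR064W (chromosome I, 220198 to 220497) had 18 reads in Ioc3-KO, 21 in Ioc3-R739E/R742E and 29 in Ioc3-Q251K/D252K, against 28 in WT1, 132 in WT2 and 173 in WT3. WT1 lay with the Ioc3 pools and below the other WT pools. The reads of so short a region depend on how many summits fall inside it. The neighbouring YAR066W had 510, 702 and 403 reads in the Ioc3 pools and 360, 647 and 744 in the WT pools. Both regions were chosen after their values were seen, and the cause was not tested.

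Reads were higher in every Ioc3 pool at SRY1, 17.8 kb from the end of XI-L, with 1019, 1140 and 1022 reads in the Ioc3 pools and 919, 899 and 897 in the WT pools (log2 fold change 0.25 ± 0.05 SE, edgeR adjusted p = 0.238). The window that holds it, from 15 to 20 kb, had 4300, 4575 and 4288 reads in the Ioc3 pools and 3922, 3818 and 3882 in the WT pools (log2 fold change 0.17, edgeR adjusted p = 0.071). YDR541C at IV-R had 1132, 1100 and 1004 reads in the Ioc3 pools and 947, 817 and 771 in the WT pools (0.37 ± 0.08 SE, edgeR adjusted p = 0.277). None of these passed, and all 3 were chosen after their values were seen.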
